A study of Mus musculus with 38 samples.

Results

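The pre-plasmablast peak was defined by levels in 3 sorted populations of mouse B cells. A gene belonged to it when its mean in control pre-plasmablasts was 5 RPKM or more and at least 1.5 times its mean in activated B cells and its mean in plasmablasts. RPKM divides a gene's reads by its length and by the depth of the library, so levels can be compared between genes. Of 11441 genes with a name that occurs once, 75 (0.656%) met the rule. These values chose the members, so the levels in the 3 populations are given as a description with no test.

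RNA was sequenced from C57BL/6 B cells kept for 4 days with LPS, a lipopolysaccharide of bacterial walls that makes B cells divide and form antibody-secreting cells. The cells carried GFP in 1 allele of the Blimp1 gene (Prdm1), so green fluorescence reports that the gene is switched on. CD138 is the surface proteoglycan syndecan 1 (encoded by Sdc1), which appears as secretion starts. Each group had 2 libraries. The labels do not say whether they stem from different animals or cultures. The p-values rest on the spread of libraries within groups, pooled over the groups of a fit and across genes, and this spread may be technical. Activated B cells were sorted as CD138– GFP–, control pre-plasmablasts had gained GFP but no CD138 (CD138– GFP+), and plasmablasts had both (CD138+ GFP+). All 3 had the genotype Blimp1(GFP/+) Cd23(Cre/+), in which Cre is made from the Cd23 locus of B cells but finds no floxed Blimp1 allele. Blimp1-deficient pre-plasmablasts were Blimp1(GFP/fl) Cd23(Cre/+), so that the second allele is deleted, and their gate, CD138– GFP+, also demanded high CD22. Genotype and the CD22 gate therefore cannot be told apart. In a separate experiment Blimp1(GFP/+) cells, with no Cre named, had the same stimulation with GSK343 or with its solvent DMSO and were sorted as CD138– GFP+ pre-plasmablasts. Plasma cells (CD28+ CD138+ GFP+ Lin-) were sorted directly from unstimulated Blimp1(GFP/+) mice.

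Blimp1 is the transcriptional repressor that ends the B cell programme and is required for antibody secretion. Pre-plasmablasts stand between the activated B cell and the plasmablast: they have switched the Blimp1 gene on and do not yet show CD138. EZH2 is the methyltransferase of Polycomb repressive complex 2 (PRC2), which places the repressive mark H3K27me3 on chromatin, and GSK343 is a small molecule that blocks its catalytic activity. In bulk libraries such as these, fewer cells of a type and less RNA per cell cannot be told apart.

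The mean of Prdm1 was 9.09 RPKM in activated B cells and 378 in control pre-plasmablasts. It was 326 in plasmablasts and 185 in Blimp1-deficient cells. RNA of the GFP allele and of the rest of the floxed allele may still be counted there, which was not tested. The level of Prdm1 therefore checks the genotype only in part. Sdc1 stood at 2.16 RPKM in control pre-plasmablasts and 31.6 in plasmablasts, and Cd22 at 33.4 in control and 327 in Blimp1-deficient pre-plasmablasts. The B lineage genes Cd79a, Cd79b and Ms4a1 had means of 311 RPKM or more in all 6 stimulated groups, while Pax5 was at 243 RPKM in activated B cells and 19.5 in control pre-plasmablasts. From 9188 to 10077 genes reached 1 RPKM in each library of the stimulated cells. The number of reads behind the values of these 8 libraries is unknown.

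Control pre-plasmablast means of the 75 members ran from 5.03 to 1438 RPKM, with a median of 12.8. They lay between 5 and 10 RPKM for 29 members, between 10 and 50 for 27, between 50 and 200 for 14 and at 200 or above for 5. The fold over activated B cells had a median of 2.49 (1.52 to 107) and the fold over plasmablasts a median of 1.93 (1.504 to 11.04), and 27 members stood 2-fold or more over both. Activated B cells had a mean below 1 RPKM for 13 members. In 55 members the plasmablast mean lay above the activated B cell mean and in 20 below it. These counts set no margin and were not tested: among the 55 is Fah, with means of 29.5 RPKM in plasmablasts and 29.4 in activated B cells. Both control pre-plasmablast libraries lay above all 4 libraries of the other populations for 72 of 75 members, against 6.32% of all 11441 genes. The exceptions were Osgin1, Isg15 and Hist2h3c1, and since the rule used these values nothing is read from the share. Taken with 1 library of each group at a time, matched by the number series in the titles, 68 members met the rule in the first set, 63 in the second, 56 in both and 0 in neither.

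**Figure D1:**
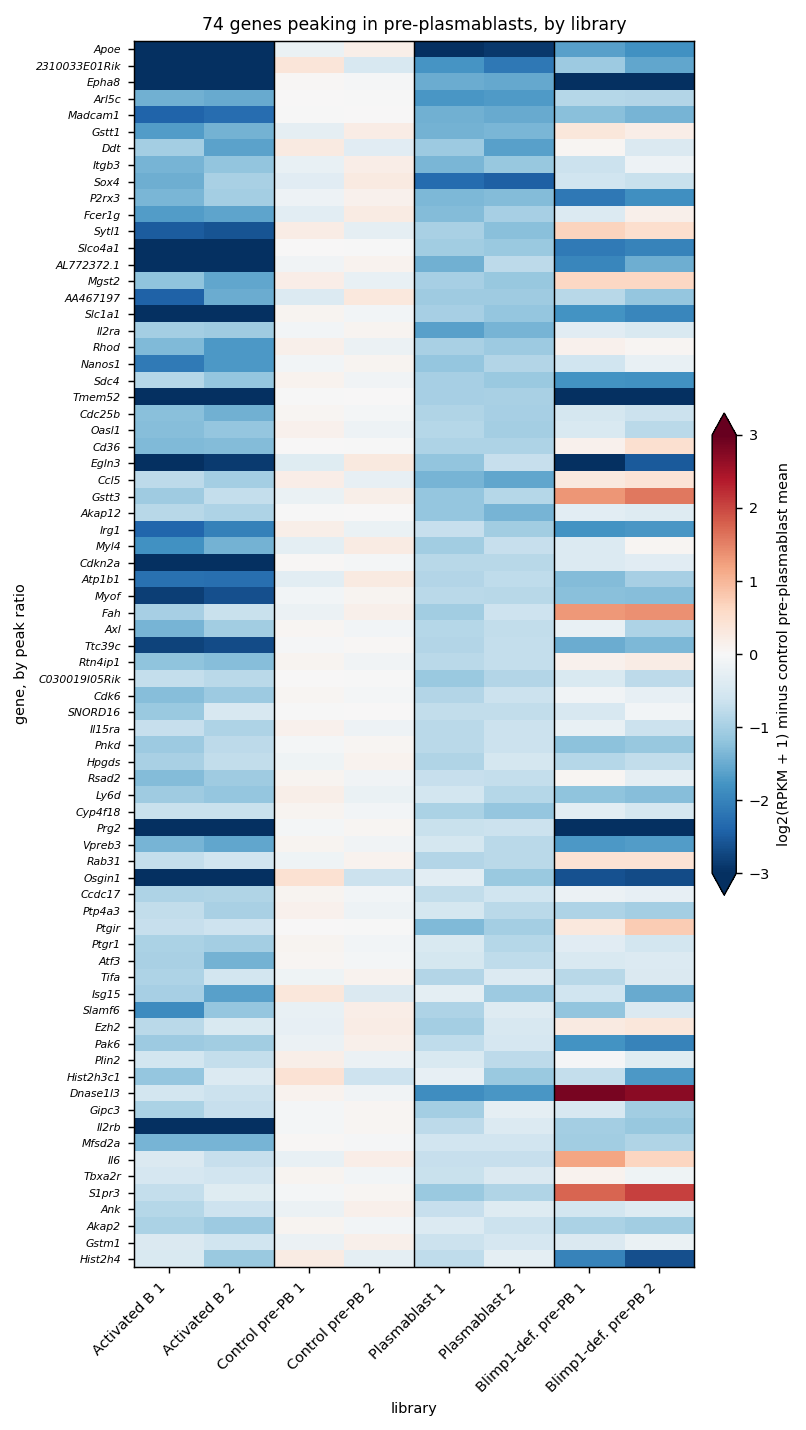
Each of 74 of the 75 members (vertical axis, ordered by the smaller of its ratios to activated B cells and to plasmablasts) in each of 8 libraries (horizontal axis). Colour is log2(RPKM + 1) minus the mean of the control pre-plasmablast libraries, limited to -3 and 3; the control columns are near 0, the activated B cell and plasmablast columns are blue because the rule required it, and the Blimp1-deficient columns range from dark blue (Prg2, Tmem52, Epha8) to red (Dnase1l3, S1pr3).

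Members near the limits of the rule differed little from genes left out. The smallest folds over activated B cells were 1.52 for S1pr3, 1.53 for Il6 and 1.55 for Ezh2, and the nearest genes outside were Pik3r6 (1.44), Ralgds (1.43) and Laptm5 (1.401). The smallest folds over plasmablasts were 1.504 for Ank, 1.525 for Il2rb and 1.529 for Akap2, with Spata13, Maff (1.498) and Pim2 (1.493) just outside. The lowest control pre-plasmablast means were 5.03 RPKM for Gstm1, 5.17 for Rhod and 5.21 for Hist2h4, and the nearest below the minimum were Adamts7 (4.88), Smoc1 (4.29) and Gdf15 (4.13).

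Apoe, a secreted apolipoprotein that carries cholesterol and other lipids, had the sharpest peak. It stood at 33.8 and 38.6 RPKM in activated B cells, 338 and 435 in control pre-plasmablasts, 34.7 and 51.2 in plasmablasts, and 125 and 109 in Blimp1-deficient pre-plasmablasts. Its plasmablast and activated B cell libraries overlapped, and the Blimp1-deficient libraries lay between them and the control peak. 2310033E01Rik, for which no role is stated, stood at 0.887 and 0.325 RPKM in activated B cells, 21.6 and 11.5 in control pre-plasmablasts and 4.15 and 2.95 in plasmablasts. Epha8, a receptor tyrosine kinase for ephrins, stood at 0 and 0.208 RPKM in activated B cells, 11.4 and 10.9 in control pre-plasmablasts and 3.33 and 3.22 in plasmablasts. Both genes kept some of their level in plasmablasts. Sox4, a transcription factor needed early in B cell development, went the other way: it stood at 2.23 and 3.60 RPKM in activated B cells, 6.14 and 9.79 in control pre-plasmablasts and 0.808 and 0.635 in plasmablasts, the largest fold over plasmablasts of any member (11.04).

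The highest levels belonged to Ly6d, a lipid-anchored surface protein of the B lineage, at 1619 and 1257 RPKM in control pre-plasmablasts, and to Ddt, a tautomerase related to the cytokine Mif, at 628 and 414 RPKM. Sdc4, a heparan sulfate proteoglycan of the same family as CD138, stood at 241 and 209 RPKM, and the phosphatase Ptp4a3 at 263 and 216 RPKM. The libraries of Ddt differed between the number series in every group: 258 and 170.0 RPKM in activated B cells, 245 and 167 in plasmablasts and 543 and 388 in Blimp1-deficient cells. In each series the control pre-plasmablast library of Ddt was above those of activated B cells and plasmablasts.

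**Figure D2:**
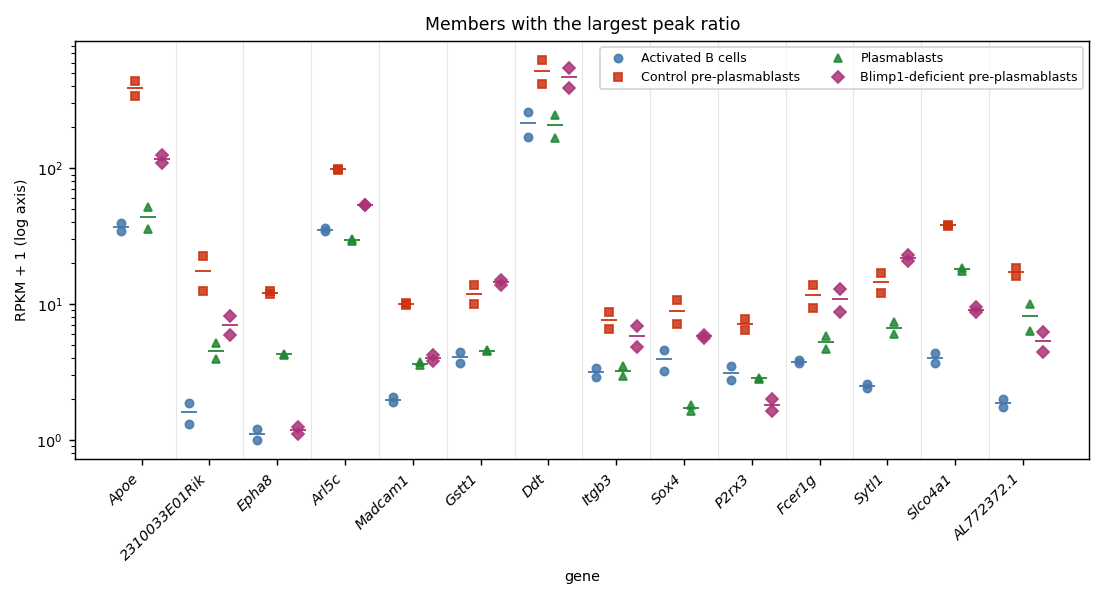
RPKM + 1 on a log axis for 14 of the 15 members with the largest peak ratio, in the 2 libraries of each of 4 groups (points) with the group mean (line). Control pre-plasmablasts (squares) lie above activated B cells and plasmablasts for all 14 by the choice of members; the Blimp1-deficient cells (diamonds) lie near activated B cells for Epha8 and at or above the control for Gstt1 and Sytl1.

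The members were sorted by role after their values had been seen. Enzymes of metabolism and detoxification and receptors, ligands and receptor adaptors made up 14 members each. Vesicle, cytoskeleton and scaffold proteins made up 11, and so did genes of the cell cycle, chromatin and transcription. There were 8 carriers of lipids and ions, 6 adhesion, surface and granule proteins, 3 interferon response genes and 8 genes with no role stated. Of 26 textbook lists searched, that of chemokines, cytokines and their receptors held the most members, 4 among 45 measured genes (Il2ra, Ccl5, Il2rb, Il6). That of the interferon response followed with 3 among 27, where 0.656% of all genes were members. Many lists held 0 members, such as those of the unfolded protein response and secretion (36 genes measured) and of B cell receptor signalling (26). No list was tested, so nothing is read from these counts. Several members lie next to each other on the GRCm38 gene order. Ddt, Gstt3 and Gstt1 are consecutive protein-coding genes, with Vpreb3 a further 8 genes away, and so are the pairs Il2ra and Il15ra, Tbxa2r and Gipc3, Myl4 and Itgb3, and Hist2h3c1 and Hist2h4. Prg2 and P2rx3 are separated by 1 gene. Reads of similar paralogs, such as the histone genes and, to a lesser degree, the glutathione transferases Gstt1 and Gstt3, may have been divided between them. Their values are less certain.

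In Blimp1-deficient pre-plasmablasts members ranged from nearly absent to well above the control. The mean lay below that of activated B cells for 10 members, between activated B cells and the control for 50, and at or above the control for 15. The fitted log2 fold change was below 0 for 60 of the 75 members and for 4194 of the 10473 genes tested (40.0%), and since the control libraries chose the members for being high, nothing is read from that excess. Over the 75 members the Blimp1-deficient mean was 64.5% of the control at the median (1.65% to 764%), and 28 members (37.3%) were under 50%. Among 1351 genes that met the rule for activated B cells but whose plasmablast mean was within the 1.5-fold limit or higher, the median was 56.3%, and 38.5% were under 50%. Of these genes 94.4% had a log2 fold change below 0.

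With limma on log2(RPKM + 1), 36 of 75 members were called lower in Blimp1-deficient than in control pre-plasmablasts and 9 higher (adjusted p below 0.05 over 10473 genes). Of all genes tested, 16.1% were called lower and 24.4% higher. The control libraries of this comparison also chose the members for being high, so the excess of lower calls is not independent of the rule. The median log2 fold change was -0.60 over the members and 0.12 over all genes. Among the 1351 genes that stayed up in plasmablasts, chosen with the same control libraries, 976 (72.2%) were called lower and 25 (1.85%) higher, where 48% of the members were called lower and 12% higher, a difference that was not tested. When the libraries were scaled by median of ratios the median of all genes moved from 0.12 to 0.00, the calls over all genes went from 2553 higher and 1681 lower to 1853 higher and 2049 lower, and those of members to 5 higher and 41 lower. Mgst2, Ptgir, Rab31 and Sytl1 were then no longer called. Of the 36 lower calls, 28 were kept whichever library was left out, and of the 9 higher calls 4.

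**Figure D3:**
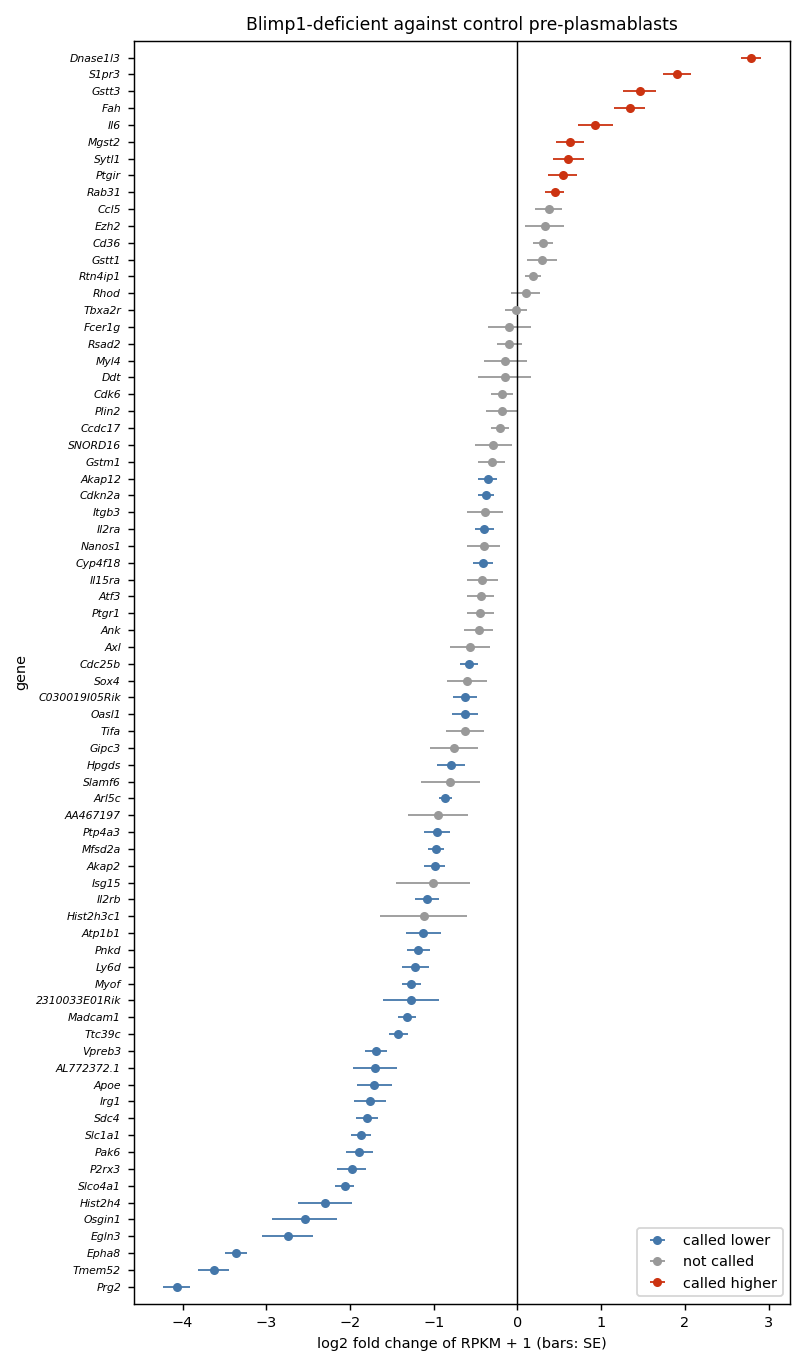
log2 fold change of RPKM + 1 in Blimp1-deficient against control pre-plasmablasts (horizontal axis) for 74 of the 75 members (vertical axis), with bars of 1 SE from limma. Members called lower (35 drawn) run from Prg2 at -4.07 to Akap12 at -0.36, and those called higher (9) from Rab31 at 0.44 to Dnase1l3 at 2.79.

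Among surface and granule proteins, 5 of 6 members were lower in Blimp1-deficient cells and none was higher. Over all genes tested 16.1% were called lower and 24.4% higher. Since the role groups were made after the values were seen and were not tested, nothing is read from counts by role, here or below. Prg2, known as the major basic protein of eosinophil granules, stood at 25.03 and 27.48 RPKM in control pre-plasmablasts, 0.445 and 0.824 in Blimp1-deficient cells and 0.257 and 0.565 in activated B cells. The Blimp1-deficient libraries overlapped those of activated B cells and were far from the control. Its log2 fold change against the control was -4.07 ± 0.16 (SE, limma adjusted p = 4.0e-05). Sdc4 stood at 64.4 and 63.5 RPKM in Blimp1-deficient cells and 124 and 100.4 in activated B cells, so it was below both populations (-1.80 ± 0.13 against the control, limma adjusted p = 0.00015). Ly6d stood at 627 and 597 RPKM and Vpreb3, a protein of B cell precursors, at 49.0 and 50.9, each below every activated B cell and control library. Neither was called different from activated B cells (-0.11 ± 0.16 and -0.23 ± 0.13, limma adjusted p = 0.73 and 0.31). Madcam1, the addressin bound by the integrin of gut-homing lymphocytes, stood at 3.25 and 2.83 RPKM, between activated B cells (0.895 and 1.07) and the control (8.94 and 9.25).

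Of the 8 carriers of lipids and ions, 5 were called lower and none higher. Apoe differed from the control by -1.71 ± 0.21 on the log2 scale (limma adjusted p = 0.0011). Slco4a1, an organic anion transporter, stood at 37.3 and 36.9 RPKM in the control, 7.76 and 8.48 in Blimp1-deficient cells and 2.70 and 3.34 in activated B cells, with no overlap between the 3 groups (-2.06 ± 0.11, limma adjusted p = 6.2e-05). Slc1a1, a glutamate carrier, stood at 9.70 and 8.44 RPKM in the control, 1.89 and 1.61 in Blimp1-deficient cells and 0.197 and 0.168 in activated B cells. Cd36, a scavenger receptor that takes up fatty acids, was not called: its Blimp1-deficient libraries (139 and 177 RPKM) were both above the control (127 and 126), with a log2 fold change of 0.31 ± 0.12 (limma adjusted p = 0.087).

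The enzymes were divided, with 5 of 14 called lower and 4 higher. Egln3, a prolyl hydroxylase of the hypoxia response, stood at 7.31 and 12.1 RPKM in the control, 0.292 and 0.882 in Blimp1-deficient cells and 0.122 and 0.456 in activated B cells (-2.74 ± 0.30 against the control, limma adjusted p = 0.00076). Irg1, which makes itaconate in activated macrophages, stood at 1.13 and 1.18 RPKM in Blimp1-deficient cells against 7.24 and 5.45 in the control. These genes had lost most of their peak. Dnase1l3, a secreted DNase, did the reverse: it stood at 5.00 and 4.61 RPKM in activated B cells, 8.39 and 7.15 in the control, 1.41 and 1.63 in plasmablasts and 62.1 and 56.6 in Blimp1-deficient cells (2.79 ± 0.12, limma adjusted p = 4.0e-05). Fah, the last enzyme of tyrosine breakdown, stood at 132 and 137 RPKM in Blimp1-deficient cells and 46.7 and 58.7 in the control, and Gstt3, a glutathione transferase, at 57.0 and 67.9 against 19.3 and 25.1. For these 3 genes the Blimp1-deficient libraries were above every other library of the 8. Mgst2, a microsomal glutathione transferase, was called higher by 0.63 ± 0.17 (limma adjusted p = 0.026), and its call was lost without the second control or either Blimp1-deficient library (adjusted p from 0.093 to 0.11). The neighbours of Gstt3 did not pass: Gstt1 had a log2 fold change of 0.30 ± 0.18 and Ddt of -0.15 ± 0.32.

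Among the 14 receptors, ligands and receptor adaptors, 4 were called lower and 3 higher. Epha8 stood at 0.251 and 0.118 RPKM in Blimp1-deficient cells, overlapping activated B cells (-3.36 ± 0.13 against the control, limma adjusted p = 4.0e-05). P2rx3, an ATP-gated ion channel, stood at 5.46 and 6.82 RPKM in the control, 0.625 and 0.993 in Blimp1-deficient cells and 1.75 and 2.52 in activated B cells, so the Blimp1-deficient libraries were the lowest of the 3 groups. Il2rb, the signalling chain shared by the receptors of IL2 and IL15, stood at 26.9 and 29.4 RPKM in the control, 13.3 and 12.2 in Blimp1-deficient cells and 2.32 and 2.59 in activated B cells. Il2ra, the private chain of the IL2 receptor, was called lower by -0.40 ± 0.12 (limma adjusted p = 0.035), a call lost without any 1 of 6 libraries (adjusted p from 0.056 to 0.16). S1pr3, a receptor for sphingosine 1-phosphate, stood at 30.7 and 38.2 RPKM in Blimp1-deficient cells against 7.97 and 8.84 in the control (1.91 ± 0.17, limma adjusted p = 0.00032). The cytokine Il6 stood at 35.0 and 24.1 RPKM against 12.7 and 17.1 (0.93 ± 0.21, limma adjusted p = 0.014), and its call was lost without the first control or the first Blimp1-deficient library (adjusted p from 0.067 to 0.072). Ptgir, the prostacyclin receptor, was called higher by 0.54 ± 0.17 (limma adjusted p = 0.045) and lost the call without any 1 of 5 libraries (adjusted p from 0.071 to 0.19).

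Vesicle, cytoskeleton and scaffold proteins had 6 of 11 members lower and 2 higher. Pak6, a kinase that acts downstream of small GTPases, stood at 4.53 and 6.02 RPKM in the control, 0.803 and 0.562 in Blimp1-deficient cells and 1.96 and 2.06 in activated B cells (-1.89 ± 0.16, limma adjusted p = 0.00027). Its Blimp1-deficient libraries were below every activated B cell library. Sytl1, an effector of Rab27 in vesicle docking, and Rab31, a GTPase of vesicle traffic, were called higher by 0.60 ± 0.19 and 0.44 ± 0.12. Both calls were lost without either Blimp1-deficient library and without some others (limma adjusted p from 0.064 to 0.17 for Sytl1 and from 0.084 to 0.12 for Rab31).

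Of the 11 genes of the cell cycle, chromatin and transcription, 5 were lower and none higher. Osgin1, a gene induced by oxidative stress, stood at 13.98 and 6.01 RPKM in the control and 0.811 and 0.707 in Blimp1-deficient cells (-2.54 ± 0.39, limma adjusted p = 0.0027). Its control libraries overlapped those of plasmablasts, at 7.88 and 4.08 RPKM. The histone gene Hist2h4 stood at 6.37 and 4.05 RPKM in the control and 0.538 and 0 in Blimp1-deficient cells (-2.30 ± 0.33). Cdkn2a, which encodes the inhibitor of cyclin-dependent kinases p16Ink4a and the p53 activator p19Arf, stood at 18.8 and 22.1 RPKM in activated B cells, 188 and 177 in the control, 102 and 103 in plasmablasts and 137 and 144 in Blimp1-deficient cells. Its difference from the control was -0.38 ± 0.10 (limma adjusted p = 0.025), lost without any 1 of the 4 libraries compared (adjusted p from 0.059 to 0.12). Against activated B cells it was higher by 2.73 ± 0.10 (limma adjusted p = 9.3e-05). Ezh2 itself, the enzyme of PRC2, stood at 55.2 and 71.0 RPKM in activated B cells, 81.9 and 114 in the control, 47.7 and 69.4 in plasmablasts and 118 and 125 in Blimp1-deficient cells, and its difference from the control was 0.33 ± 0.23 (limma adjusted p = 0.31). Of 32 tested genes of the Polycomb complexes, 4 were called higher and 2 lower in this comparison, and of 42 cyclin, E2F and mitosis genes 3 higher and 13 lower, including the member Cdc25b, a phosphatase that activates the mitotic kinase (-0.58 ± 0.10, limma adjusted p = 0.0055). Of 7 inhibitors of cyclin-dependent kinases, 1 was higher and 3 were lower.

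Among genes with no stated role, 5 of 8 were lower. Tmem52, a predicted membrane protein, stood at 50.0 and 50.4 RPKM in the control, 24.6 and 25.1 in plasmablasts, 2.47 and 3.95 in Blimp1-deficient cells and 0.603 and 0.994 in activated B cells (-3.63 ± 0.19 against the control, limma adjusted p = 5.7e-05). 2310033E01Rik stood at 7.19 and 4.92 RPKM in Blimp1-deficient cells, below both control libraries and above both of activated B cells. Its call against the control (-1.27 ± 0.33, limma adjusted p = 0.023) was lost without the first control or the second Blimp1-deficient library (adjusted p from 0.098 to 0.12). Of the interferon response members, Oasl1 was called lower (-0.63 ± 0.15, limma adjusted p = 0.018), a call lost without the first control or the second Blimp1-deficient library (adjusted p from 0.090 to 0.092). Rsad2 (-0.10 ± 0.15) did not pass. Isg15, a ubiquitin-like protein, stood at 164 and 95.3 RPKM in the control and 85.2 and 44.8 in Blimp1-deficient cells, without overlap, and did not pass either (-1.01 ± 0.44, limma adjusted p = 0.12). Of the 26 interferon response genes tested, 15 were higher and 5 lower, with a median of 0.90.

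Blimp1-deficient pre-plasmablasts were also compared with activated B cells. These populations differ in genotype, in GFP and in the CD22 gate, which cannot be told apart. Of 75 members, 42 were called higher and 4 lower by limma, against 10.4% and 7.60% of 10473 genes. The activated B cell libraries also chose the members for being low, so these counts are not independent of the rule either. The median log2 fold change was 0.71 over the members and 0.00 over all genes, and of the 1351 genes that stayed up in plasmablasts 429 were called higher and 28 lower. With each library left out in turn, 27 of the 42 higher calls and 0 of the 4 lower calls were always kept. Sytl1 was higher by 3.13 ± 0.19 (21.9 and 19.6 RPKM against 1.57 and 1.41), Il2rb by 1.99 ± 0.14 and Gstt1 by 1.83 ± 0.18. Gstt1 stood at 14.2 and 12.8 RPKM in Blimp1-deficient cells, 8.99 and 12.9 in the control and 2.71 and 3.46 in activated B cells, so its Blimp1-deficient libraries overlapped the control and were apart from activated B cells. The 4 genes called lower were Hist2h4 (-1.54), Pak6 (-0.84), Sdc4 (-0.80) and P2rx3 (-0.79). Without 1 of the libraries compared their adjusted p rose to between 0.0503 and 0.13, and all 4 calls were lost without the second Blimp1-deficient library. Prg2 (0.21 ± 0.16), Epha8 (0.11 ± 0.13) and Egln3 (0.29 ± 0.31) were not called. For these genes no rise above activated B cells was detectable in Blimp1-deficient pre-plasmablasts.

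The libraries with GSK343 and with DMSO took no part in the choice of members and were normalized in another way than the other 8, so their levels are set beside the control pre-plasmablasts without a test. Of the 75 members, 73 were listed in these libraries (Hist2h3c1 and Akap2 were not), and 67 reached 1 RPKM in at least 2 of the 4. Under DMSO 42 members had a mean of 5 RPKM or more and 11 a mean under 1 RPKM. Epha8, at 11.4 and 10.9 RPKM in control pre-plasmablasts, stood at 0.487 and 0.211 under DMSO, and Apoe, at 338 and 435, stood at 5.26 and 3.61. Ly6d went the other way, at 6467 and 5252 RPKM under DMSO.

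With GSK343 more members were called higher than lower, and the same was true of all genes tested. Limma called 28 members higher and 13 lower with GSK343 than with DMSO, of 67 tested and 75 in all, while 12.7% of 9479 genes were called higher and 5.86% lower. In all 61.2% of the members tested and 18.6% of all genes tested were called. The median log2 fold change was 0.25 over the members tested and 0.02 over all genes. Axl and Rsad2 were tested because the GSK343 libraries alone reached 1 RPKM, and Osgin1 because the DMSO libraries alone did, so their direction was fixed by the filter. Of the 1325 tested genes that stayed up in plasmablasts, 186 were higher and 208 lower. With median-of-ratios scaling the calls over all genes went from 1208 higher and 555 lower to 1049 higher and 855 lower, and those over members to 26 higher and 14 lower. Among the higher calls 17 of 28, and among the lower calls 6 of 13, were kept whichever library was left out, wherever the gene could still be tested. Without the first GSK343 library 16 members were called higher and 9 lower, and without the second 18 and 8.

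**Figure D4:**
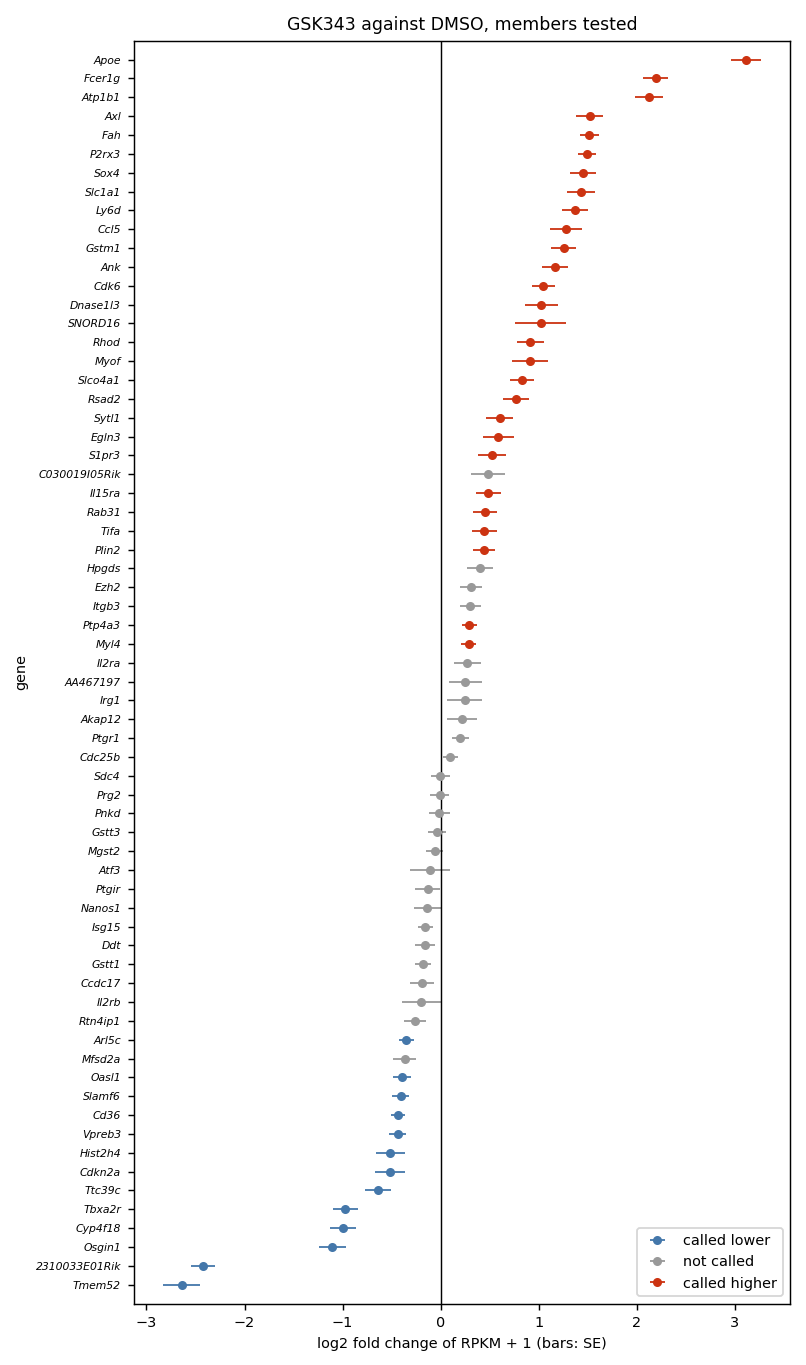
log2 fold change of RPKM + 1 with GSK343 against DMSO (horizontal axis) for 66 of the 67 members tested (vertical axis), with bars of 1 SE from limma. The 28 members called higher run from Myl4 at 0.28 to Apoe at 3.11 and the 13 called lower from Tmem52 at -2.64 to Arl5c at -0.35.

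Of the 8 carriers of lipids and ions, 6 were higher with GSK343 and 1 lower. Over all genes tested 12.7% were called higher and 5.86% lower. For GSK343 too, nothing is read from the counts by role, since the groups were made after the values were seen. Apoe stood at 5.26 and 3.61 RPKM under DMSO and 50.4 and 40.8 under GSK343, without overlap (3.11 ± 0.15, limma adjusted p = 6.5e-07). Atp1b1, the beta subunit of the sodium pump, stood at 12.5 and 9.07 RPKM under DMSO and 55.2 and 45.1 under GSK343 (2.13 ± 0.14, limma adjusted p = 5.1e-06). Slc1a1 stood at 1.86 and 1.31 RPKM against 5.94 and 5.93, Slco4a1 at 33.9 and 26.4 against 59.2 and 49.3, and Ank, a pyrophosphate transporter, at 5.52 and 4.29 against 12.6 and 11.7. In each the GSK343 libraries were both above the DMSO libraries. Cd36 fell, from 172 and 168 RPKM to 123 and 128 (-0.44 ± 0.075, limma adjusted p = 0.0023).

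Of 12 receptors, ligands and receptor adaptors tested, 7 were higher and 2 lower, Axl being among the 7. Fcer1g, the signalling chain of Fc receptors, stood at 2.09 and 2.60 RPKM under DMSO and 13.7 and 14.8 under GSK343 (2.19 ± 0.13, limma adjusted p = 2.2e-06). P2rx3 stood at 10.8 and 11.1 RPKM against 32.2 and 33.0 (1.49 ± 0.09), and the chemokine Ccl5 at 2.88 and 2.54 against 9.71 and 6.57 (1.28 ± 0.16). Axl, the receptor tyrosine kinase for Gas6, stood at 0.223 and 0.197 RPKM under DMSO and 2.27 and 2.68 under GSK343, and having passed the filter through the GSK343 libraries it could differ in 1 direction only. Tbxa2r, the thromboxane receptor, fell from 9.91 and 8.57 RPKM to 4.40 and 4.03 (-0.97 ± 0.13, limma adjusted p = 0.00039). The levels under GSK343 were thus 2 RPKM or more in every library for these 5 genes. S1pr3 was called higher by 0.52 ± 0.15 (limma adjusted p = 0.030), a call lost without the second DMSO or either GSK343 library (adjusted p from 0.097 to 0.18). Of 34 tested chemokines, cytokines and receptors, 14 were higher and 6 lower.

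Fcer1g is also a marker of myeloid cells, and its level was compared with the other markers of that list. In the 8 libraries 5 of the 17 markers were measured. Their summed level was 52.3 to 61.8 RPKM in activated B cells, 100.4 to 176 in control pre-plasmablasts, 135 to 242 in plasmablasts and 53.3 to 91.5 in Blimp1-deficient cells, with Cebpb at a mean of 124 RPKM in the control and 28.8 in Blimp1-deficient cells. Itgam, Tyrobp and Emr1 had means of 10.6, 14.7 and 1.57 RPKM in activated B cells and 0.591, 3.49 and 0.0606 RPKM in the control. In Blimp1-deficient cells they stood at 11.9, 17.8 and 4.11 RPKM, and limma called all 3 higher than in the control. Hbb-b1, a globin gene of erythroid cells, was likewise higher, at 10.4 against 0.494 RPKM. These markers thus moved with the Blimp1-deficient comparison, and apart from Emr1 they were not called different between Blimp1-deficient and activated B cells. In the inhibitor libraries 16 markers were measured, and their sum was 26.3 to 28.2 RPKM under DMSO and 30.1 to 31.0 under GSK343. Of these, 7 were at 0 in each DMSO library, Lyz1 and Csf1r among them, and 3 to 4 were at 0 under GSK343. Tyrobp stood at 2.96 and 3.49 RPKM under DMSO and 2.40 and 2.91 under GSK343. Of the T cell markers, 4 of 15 were measured in the 8 libraries, and their sum, mostly Cd2, was 63.9 to 69.6 RPKM in the control and 255 to 301 in Blimp1-deficient cells. With GSK343 3 of 4 tested T cell markers were called higher: Lck went from a mean of 2.33 to 8.91 RPKM, Cd5 from 0.611 to 3.07 and Lat from 1.85 to 3.54, while Cd2 fell from 49.7 to 32.9. Of the 14 T cell markers measured in the inhibitor libraries, 8 and 4 were at 0 in the DMSO libraries and 3 in each GSK343 library. Cd3e and Themis were at 0 in both DMSO and both GSK343 libraries. Cd14, Prf1 and Car2, on the myeloid, natural killer and erythroid lists, were also called higher with GSK343, by 1.05, 1.17 and 0.96 on the log2 scale, and Cebpb and Flt3 lower. Cd5, Cd14 and Prf1 reached 1 RPKM in the GSK343 libraries alone, so their direction was fixed by the filter. The part of other cells in the members' differences in either comparison, among them those of Fcer1g, Apoe, Axl, Irg1 and Dnase1l3, was not tested.

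Among enzymes, 4 of 14 members were higher and 1 lower. Fah stood at 16.6 and 15.1 RPKM under DMSO and 50.7 and 43.9 under GSK343 (1.52 ± 0.10, limma adjusted p = 5.0e-06), and Gstm1, a glutathione transferase, at 3.42 and 2.85 against 9.20 and 8.52 (limma adjusted p = 8.7e-05). Dnase1l3 stood at 3.03 and 2.98 RPKM against 8.92 and 5.71 (1.03 ± 0.17). Cyp4f18, a cytochrome that inactivates leukotriene B4, fell from 188 and 133 RPKM to 77.7 and 80.1 (-0.99 ± 0.13, limma adjusted p = 0.00046). The neighbouring Ddt, Gstt3 and Gstt1 were not called, with log2 fold changes of -0.16 ± 0.10, -0.04 ± 0.09 and -0.18 ± 0.08.

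Of 10 genes of the cell cycle, chromatin and transcription tested, 3 were higher and 3 lower. Sox4 stood at 2.70 and 2.97 RPKM under DMSO and 10.3 and 8.76 under GSK343 (1.45 ± 0.13, limma adjusted p = 3.7e-05), and Cdk6, a kinase of the G1 phase, at 5.52 and 5.74 against 11.9 and 13.5 (1.05 ± 0.12, limma adjusted p = 0.00016). Cdk6 was the member of 39 tested cyclin, E2F and mitosis genes that rose, while 6 fell. Osgin1 stood at 2.34 and 2.99 RPKM against 0.698 and 0.704 (-1.10 ± 0.14), its direction fixed by the filter. Cdkn2a, a textbook target of Polycomb repression, stood at 102 and 157 RPKM under DMSO and 86.1 and 90.1 under GSK343, so that the GSK343 libraries were the lower. Its call (-0.52 ± 0.15, limma adjusted p = 0.039) was lost without the second DMSO library (-0.21, adjusted p = 0.14) and without either GSK343 library (adjusted p 0.15 and 0.19). Ezh2 stood at 25.5 and 32.2 RPKM under DMSO and 36.7 and 35.0 under GSK343 and was not called (0.31 ± 0.11, limma adjusted p = 0.077), but was without the second DMSO library (0.48, adjusted p = 0.0012). Of 30 tested genes of the Polycomb complexes 6 were higher and 2 lower.

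The largest falls were in genes with no stated role. Tmem52 stood at 26.5 and 17.2 RPKM under DMSO and 2.16 and 3.08 under GSK343 (-2.64 ± 0.19, limma adjusted p = 7.6e-06), and 2310033E01Rik at 50.4 and 39.7 against 7.16 and 7.92 (-2.42 ± 0.12, limma adjusted p = 7.9e-07). Both pairs of libraries were far apart. Of the surface proteins, Ly6d rose from 6467 and 5252 RPKM to 14491 and 15646 (1.37 ± 0.13, limma adjusted p = 6.2e-05), while Prg2 stood at 117 and 95.1 against 106 and 103 (-0.01 ± 0.10) and Sdc4 at 309 and 266 against 307 and 267 (-0.00 ± 0.10). Vesicle and scaffold proteins had 5 of 8 tested members higher and 1 lower, with Rhod, a GTPase of endosomes, at 1.37 and 1.15 RPKM against 3.58 and 2.96 (0.92 ± 0.14, limma adjusted p = 0.0011). Of the interferon response members Rsad2, whose direction the filter had fixed, differed by 0.76 ± 0.13, Oasl1 was lower (-0.40 ± 0.09) and Isg15 was not called (-0.16 ± 0.08). The call for Oasl1 was lost without the second GSK343 library (-0.32, limma adjusted p = 0.13).

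**Figure D5:**
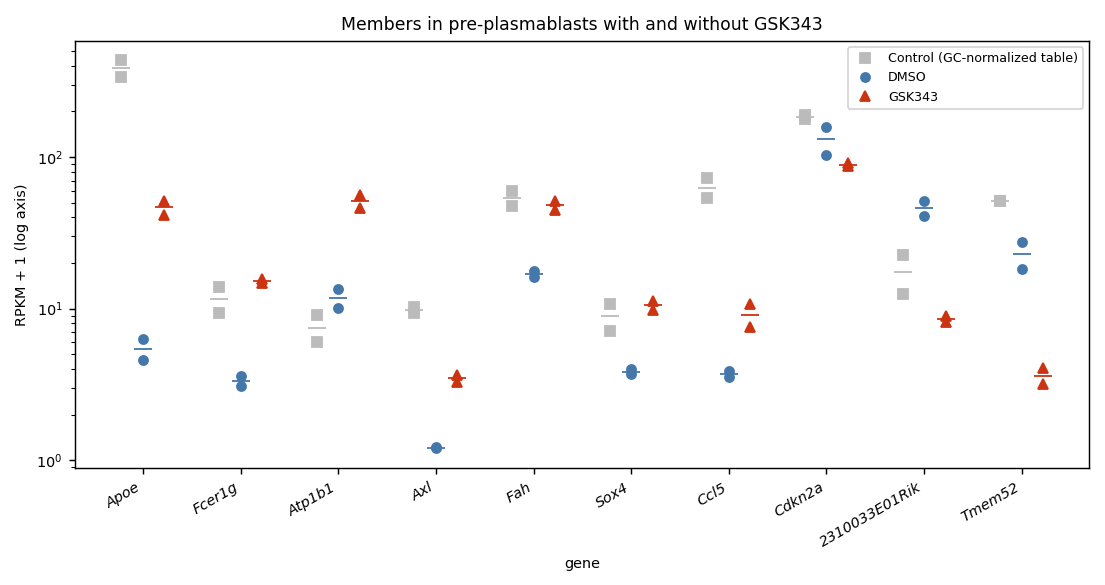
RPKM + 1 on a log axis for 10 members in the 2 DMSO and 2 GSK343 libraries (points, with the mean as a line) and, in grey, in the 2 control pre-plasmablast libraries, whose values were normalized separately. The 10 were picked from the members called, and the direction of Axl was fixed by the filter. Nothing is therefore read from the lack of overlap between their DMSO and GSK343 points. GSK343 lies above DMSO for Apoe, Fcer1g, Atp1b1, Axl, Fah, Sox4 and Ccl5 and below it for Cdkn2a, 2310033E01Rik and Tmem52.

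The upstream sequences of members with large GSK343 responses are printed for the members at both ends of the response: the 3 largest rises and, of the 3 largest falls, the 2 with an upstream sequence in the reference table. Each is the 250 bases before the gene's start, 5′ to 3′ on the gene's strand, from RefSeq on GRCm38.p6. Apoe has 3 starts in that table, and the first was taken. Capitals mark matches, on either strand, to 10 motifs that were searched: TTCCCGCC (E2F), TTTGAA (cell cycle homology region), CCAAT, AGNGAAAG (the core bound by Blimp1 and IRF factors), GAAANNGAA (interferon response), GGGANTTTC (NF-kB), TGANTCA (AP-1), TGACGTCA (cyclic AMP response), CACGTG (E box) and TATAAA.
Apoe, chr7:19699189-19699438, minus strand: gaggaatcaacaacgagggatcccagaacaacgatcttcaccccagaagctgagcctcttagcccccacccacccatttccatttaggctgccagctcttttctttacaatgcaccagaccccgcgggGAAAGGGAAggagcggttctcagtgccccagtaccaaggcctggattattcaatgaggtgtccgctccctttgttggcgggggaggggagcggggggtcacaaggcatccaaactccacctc
Fcer1g, chr1:171234350-171234599, minus strand: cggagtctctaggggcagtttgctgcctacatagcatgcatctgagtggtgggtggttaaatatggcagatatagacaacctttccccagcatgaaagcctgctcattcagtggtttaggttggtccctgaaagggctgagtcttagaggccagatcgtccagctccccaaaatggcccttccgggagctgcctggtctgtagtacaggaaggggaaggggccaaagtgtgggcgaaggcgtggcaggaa
Atp1b1, chr1:164458356-164458605, minus strand: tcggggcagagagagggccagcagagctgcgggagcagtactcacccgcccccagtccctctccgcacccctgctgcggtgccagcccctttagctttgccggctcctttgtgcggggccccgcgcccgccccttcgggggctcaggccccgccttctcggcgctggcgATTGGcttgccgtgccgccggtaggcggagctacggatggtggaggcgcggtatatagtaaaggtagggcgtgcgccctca
2310033E01Rik, chr7:24546006-24546255, minus strand: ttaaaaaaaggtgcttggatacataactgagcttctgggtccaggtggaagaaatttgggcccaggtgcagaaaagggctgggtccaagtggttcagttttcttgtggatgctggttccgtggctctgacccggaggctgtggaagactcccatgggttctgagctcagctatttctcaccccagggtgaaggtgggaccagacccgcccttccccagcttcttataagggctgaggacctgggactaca
Osgin1, chr8:119436897-119437146, plus strand: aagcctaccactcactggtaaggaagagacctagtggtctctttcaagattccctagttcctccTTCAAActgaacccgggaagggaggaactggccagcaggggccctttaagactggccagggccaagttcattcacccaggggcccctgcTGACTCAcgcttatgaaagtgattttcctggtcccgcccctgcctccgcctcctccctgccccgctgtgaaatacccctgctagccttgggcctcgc

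The Apoe sequence held 1 match to GAAANNGAA, which 6.10% of 8950 genes with an upstream sequence held. That of Atp1b1 held 1 match to CCAAT, here on the opposite strand, which 37.0% held. That of Osgin1 held 1 match to TTTGAA (10.51% of all) and 1 to TGANTCA (4.09%). The sequences of Fcer1g and 2310033E01Rik held none of the 10, which says only that these letters are not in this window. Apoe and Atp1b1 matched different motifs. Of the 75 members 58 (77.3%) had an upstream sequence, fewer than the 80% set as the least for a check over the group, so no share over the members is given.

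The Blimp1-deficient and GSK343 comparisons share no library and could be set side by side for the 67 members tested in both. Of the 31 of these called lower in Blimp1-deficient cells, 9 were higher with GSK343, 10 lower and 12 not called. The 10 lower in both were 2310033E01Rik, Arl5c, Cdkn2a, Cyp4f18, Hist2h4, Oasl1, Osgin1, Tmem52, Ttc39c and Vpreb3, which are 32.3% of the 31 and 76.9% of the 13 lower with GSK343. Over all 9285 genes tested in both, 241 were lower in both. They were 15.5% of those lower in Blimp1-deficient cells and 44.2% of those lower with GSK343. The 9 that were lower in Blimp1-deficient cells and higher with GSK343 were Apoe, Atp1b1, Egln3, Ly6d, Myof, P2rx3, Ptp4a3, Slc1a1 and Slco4a1. They are 29.0% of the 31 and 32.1% of the 28 higher with GSK343, where the shares over all genes were 14.1% and 19.4%. Of the 8 called higher in Blimp1-deficient cells, 5 were also higher with GSK343 (Dnase1l3, Fah, Rab31, S1pr3 and Sytl1) and 0 lower. These 5 are 62.5% of the 8 and 17.9% of the 28 higher with GSK343, where the shares over all genes were 21.9% and 40.1%. Of the 10 lower in both, Tmem52 kept both calls whichever library was left out. Osgin1 could differ with GSK343 in 1 direction only, which the filter had fixed, and each of the other 8 lost 1 call or both without some library. Apoe, Atp1b1, Ly6d, P2rx3, Slc1a1 and Slco4a1 kept both of theirs, and so did Dnase1l3 and Fah. The control libraries of the first comparison chose the members, and no test of these overlaps was made.

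In plasma cells taken directly from mice, whose values were also normalized separately, 71 members were listed. Their mean was under 1 RPKM for 23 and 5 RPKM or more for 33, and 14 stood above their control pre-plasmablast mean. Ly6d was the highest, at 1752 and 1737 RPKM, followed by Prg2 at 1744 and 1481 RPKM. Atp1b1 stood at 60.4 and 58.6 RPKM, Fcer1g at 30.9 and 33.4 and Il2rb at 31.5 and 23.4, so members that peaked among the cultured populations were not all low in plasma cells. Apoe stood at 27.4 and 29.9 RPKM, Ezh2 at 6.01 and 5.24, Cdkn2a at 4.64 and 4.20, and Cd36 at 0.562 and 0.195.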

How the data were processed

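The authors deposited RPKM values per gene. Those of the 8 libraries of cells with Cd23(Cre/+) were GC-normalized, per the file names; the 4 inhibitor and 2 plasma cell libraries were not, so tests stayed within a table. The submitters' processing notes name mm9 as the genome, and as tools DESeq 1.8.3, HTSeq 0.5.3, SICER and TopHat 1.4.1, without their roles. Sources used here name neither the annotation nor the strand setting of the counting, and values of overlapping genes are less certain. In the plasma cell files 5 lines without a value shifted the gene names, which were moved back. Relative to the first DMSO library, the depth was 0.848 in the second DMSO library and 1.008 and 0.832 in the GSK343 libraries.

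Names that occur more than once were left out, and 1 member, included in the counts, is not reported here. Genes at 1 RPKM or more in 2 libraries were tested as log2(RPKM + 1), which understates changes of low genes, with limma 3.58.1 in R 4.3.3 (lmFit, eBayes with trend, two-sided, tested on simulated data): 1 fit over the 8 libraries in 4 groups and 1 over the inhibitor libraries. Genes were called at p below 0.05 after Benjamini-Hochberg adjustment across the whole table. Tables and plots used Python 3.11.15, pandas 2.3.3 and matplotlib 3.10.9. Members and gene lists were chosen with earlier results of these data known. Genes were named by peak ratio, level, list, limits of the rule and size of change; other named members, and the role groups, were chosen after their values were seen. Alternatives were other limits, pseudocounts, filters, scalings and fits, and leaving out each library.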

Additional observations from a re-analysis of the deposited data

How the results depend on the processing

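The number of members depended on the limits: 27 with a 2-fold limit, 174 with a limit midway between equal levels and 1.5-fold, 148 with a minimum of 1 RPKM and 46 with a minimum of 10 RPKM. Median-of-ratios scaling gave 69 members, 65 of them shared, and leaving out each library in turn gave 73 to 104. The counts below keep the 75 members. Higher calls in Blimp1-deficient against control cells were 5 with median-of-ratios scaling and 5 to 9 with each library left out, and lower calls 29 to 38. Against activated B cells higher calls were 29 to 40 and lower calls 0 to 4 with each library left out. With GSK343, higher calls were 16 to 29 and lower calls 8 to 12 with each library left out. Without a filter on low values limma called 0 members higher and 0 lower, and 0 of all genes, because genes at 0 in all libraries have no variance. With those genes left out and no other filter, an alternative chosen after seeing the data, 17 members were higher and 10 lower. With the library number series of the titles as a replicate block, 12 members were higher and 51 lower against the control, and 53 higher and 5 lower against activated B cells. That block was not the main design because the labels do not say what the series share; deviations from the group means correlated within a series at r = 0.67 to 0.78 across 10473 genes, which are not independent replicates. No log2 fold change of a called member, of Ezh2 or of Prdm1 changed sign under the alternatives recomputed, while with median-of-ratios scaling the balance of calls over all genes turned in the comparison with the control. For GSK343 no paired analysis was possible because no label pairs its libraries. With 2 libraries a group, the spread behind each p-value is pooled across genes by limma.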
